A study of Mus musculus with 65 samples.

Results

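Transcripts of 10 genes of the retinal pigment epithelium were followed in RNA-seq libraries of mouse retina, and their variation from mouse to mouse was set beside their differences between groups. The genes are Rpe65, Best1, Ttr, Rgr, Lrat, Tyr, Tyrp1, Dct, Pmel and Mlana. They were found by symbol among the 50686 gene identifiers of the count table, all 10 were present, and they are read here as CPM (a gene's count scaled to the sum of all gene counts of its library).

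The pigment epithelium is the single layer of pigmented cells behind the photoreceptors. It turns all-trans retinol back into the chromophore of the visual pigments, engulfs shed outer segments and holds melanin. It is pulled off or left behind when a neural retina is lifted from the eyecup. Its retinoid genes are Rpe65, the isomerase of the visual cycle, Lrat, which makes the retinyl esters that RPE65 uses, Rgr, an opsin that binds all-trans retinal and is also made by Müller glia, and Ttr, the carrier of thyroxine and of retinol-binding protein. Its melanosome genes are Tyr, the rate-limiting enzyme of melanin synthesis, Tyrp1 and Dct, enzymes related to it, Pmel, which forms the fibrils on which melanin is laid down, and Mlana, a protein of maturing melanosomes. Best1 encodes a chloride channel of the basolateral membrane. Melanosome genes are also used by the pigmented layers of the ciliary body and iris and by melanocytes of the choroid, whereas RPE65 is a product of the pigment epithelium.

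The 65 libraries came from retinas of adult C57BL/6J mice, 1 library a sample, in 16 groups of 3 to 6. The groups are control diet (CD, labelled vehicle, 5 mice), PLX5622, an inhibitor of CSF1R that removes microglia, for 2, 5, 7, 10, 14 or 21 days (DEP2 to DEP21), repopulation after withdrawal of PLX5622 for 3, 5, 7, 10, 14 or 21 days or 2 months (REPOP3 to REPOP21, REPOP60), lipopolysaccharide on control diet (LPSCD, 3 mice), and lipopolysaccharide with PLX5622 in the labels, which the study's methods name as challenged repopulated retina (LPSREPOP, 4 mice). Nothing in the labels says which part of the eye went into the homogenate beyond retina, and photoreceptor genes summed to between 35566 and 56301 CPM in every library. The sample titles end in RE (39 mice) or re (26 mice). All DEP5 mice are RE, all REPOP60, LPSCD and LPSREPOP mice are re, and the other groups hold both. Of the CD mice 1, with suffix re, is labelled 2M in place of a plain replicate number. What the suffix stands for is not given in the sources used here. Library totals ran from 5106429 to 8760443 counts (RE 7572657 to 8760443, re 5106429 to 8097293), so 3 counts were worth 0.342 to 0.587 CPM.

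In GRCm38 with GENCODE gene models, Rpe65 lies at chr3:159599175-159625321, Lrat at chr3:82892579-82903973, Rgr at chr14:37034909-37048964, Ttr at chr18:20665280-20674321, Tyr at chr7:87424771-87493512, Tyrp1 at chr4:80834123-80851719, Dct at chr14:118012790-118052244, Pmel at chr10:128704195-128720238, Mlana at chr19:29697824-29708634 and Best1 at chr19:9985174-10001633. All 10 genes were low. Per unit of length, as the median of the deposited FPKM values, Ttr stood at 4.50 and Rgr at 3.11, followed by Dct at 0.461, Rpe65 at 0.248, Pmel at 0.246, Tyrp1 at 0.196, Lrat at 0.124, Best1 at 0.0842 and Tyr at 0.0299. The median of Mlana was listed at 0. Ttr and Rgr were counted in every library (17 to 103 and 12 to 115 counts), as were Pmel (7 to 46), Dct (3 to 203), Tyrp1 (1 to 56) and Best1 (1 to 14). Rpe65 and Lrat each had no count in 1 library, the same CD mouse, and reached 26 and 19 counts. Tyr had no count in 14 libraries and 3 counts or fewer in 48, and Mlana had none in 37 and 3 or fewer in 60, so single values of these genes say little. Pmel shares 34 exonic bases with Cdk2 and 105 with Dgka, which lie on the other strand, out of 2292 exonic bases. The strand setting of the counting is not given in the sources used here, so reads of those bases cannot be told apart.

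The spread of most of these genes went beyond what counting alone gives. The coefficient of variation of Rgr over the 65 libraries was 41.3%, against 13.7% from counting, and that of Ttr was 42.9% against 14.6%. Dct reached 141% against 22.3%, and Tyrp1 104% against 35.9%. For Best1 the values lay close to each other, at 53.4% and 44.7%. In the fit over all groups, the biological coefficient of variation (the spread between mice left after counting error) of Dct was 0.613, which is 4.26 times the trend for genes of its abundance and a higher ratio than that of 99.8% of the genes tested. The same share was 99.6% for Mlana, 99.0% for Ttr, 98.7% for Rgr, 98.5% for Tyr, 98.2% for Tyrp1, 97.0% for Rpe65, 93.1% for Lrat and 91.3% for Pmel. Best1 sat in the middle of the genes, at 55.2%. So for 9 of the 10 genes the ratio to the trend was higher than that of over 91% of the genes tested.

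**Figure D1:**
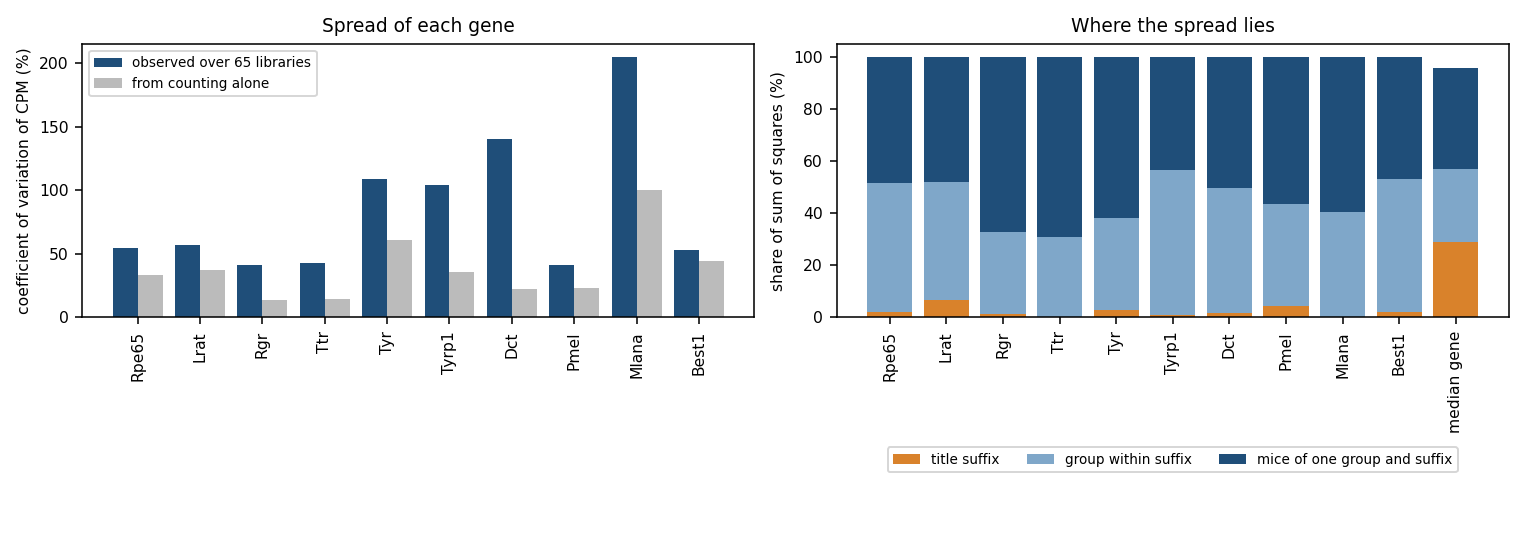
Left, coefficient of variation of the CPM of each gene over 65 libraries (dark bars) and the part that counting alone gives (grey bars), in percent. Right, share of the sum of squares of log2(CPM + 1) that lay between title suffixes, between groups within a suffix and between mice of one group and suffix, in percent. The last bar shows the 3 medians over 15878 genes, which need not sum to 100. Dct has the widest gap between observed and counting spread, and the suffix takes under 7% of every gene's spread.

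For Ttr and Rgr most of this spread lay between mice of the same group. On log2(CPM + 1), mice of one group and suffix (28 such cells) accounted for 69.0% of the sum of squares of Ttr and 67.1% of that of Rgr, against a median of 38.6% over 15878 genes with a mean of at least 1 CPM. The group accounted for 30.7% and 31.7%, against a median of 28.0% over the same 15878 genes. The mean square between groups was below that within groups for both, with ratios of 0.634 and 0.674, where the median over those genes was 1.03. For Tyrp1 and Dct the group took 55.5% and 48.0% and the ratios were 1.81 and 1.36. Best1 (51.0%, ratio 1.55), Rpe65 (49.6%, 1.46) and Lrat (45.3%, 1.35) had shares like that of Dct. The title suffix took 0.234% of the sum of squares of Ttr and at most 6.87%, for Lrat, where the median gene gave it 29.0%. The SD within group and suffix exceeded that of 99.9% of genes for Dct, 99.7% for Ttr and Rgr and 99.3% for Tyrp1.

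None of these genes passed the test between title suffixes, a division that moved many others. In edgeR's quasi-likelihood test of re minus RE with the groups in the model, 0 of the 10 genes passed the threshold (a Benjamini-Hochberg FDR below 0.01 and a change of more than 1 on the log2 scale), where 2.08% of the 28211 genes tested passed as higher and 1.23% as lower in re mice. With no minimum fold 0 of the 10 passed, against 38% of all genes. None of the 10 had an unadjusted p under 0.05, against 50.2% of all genes, and DESeq2 called 0 as well. The fitted log2 differences ran from -0.50 for Tyr to 0.30 for Mlana, with SEs from 0.152 for Pmel to 0.583 for Mlana. The share of all genes that passed depends on abundance. With no minimum fold it was 10349 of 17053 genes under a stricter filter on low counts, against 10710 of 28211 here. No share was taken over genes of like abundance and spread, so the 0 of 10 does not show that the suffix spares these genes. Among the other pigment epithelium genes, Tspan10, a tetraspanin of pigment cells, was higher in re mice (log2 fold change 1.20, SE 0.162, FDR 2.09e-09), 1 of 12 listed genes. In blood, both of the listed beta-globin genes passed: Hbb-bs fell by 1.40 and Hbb-bt fell by 1.63 on the log2 scale.

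**Figure D2:**
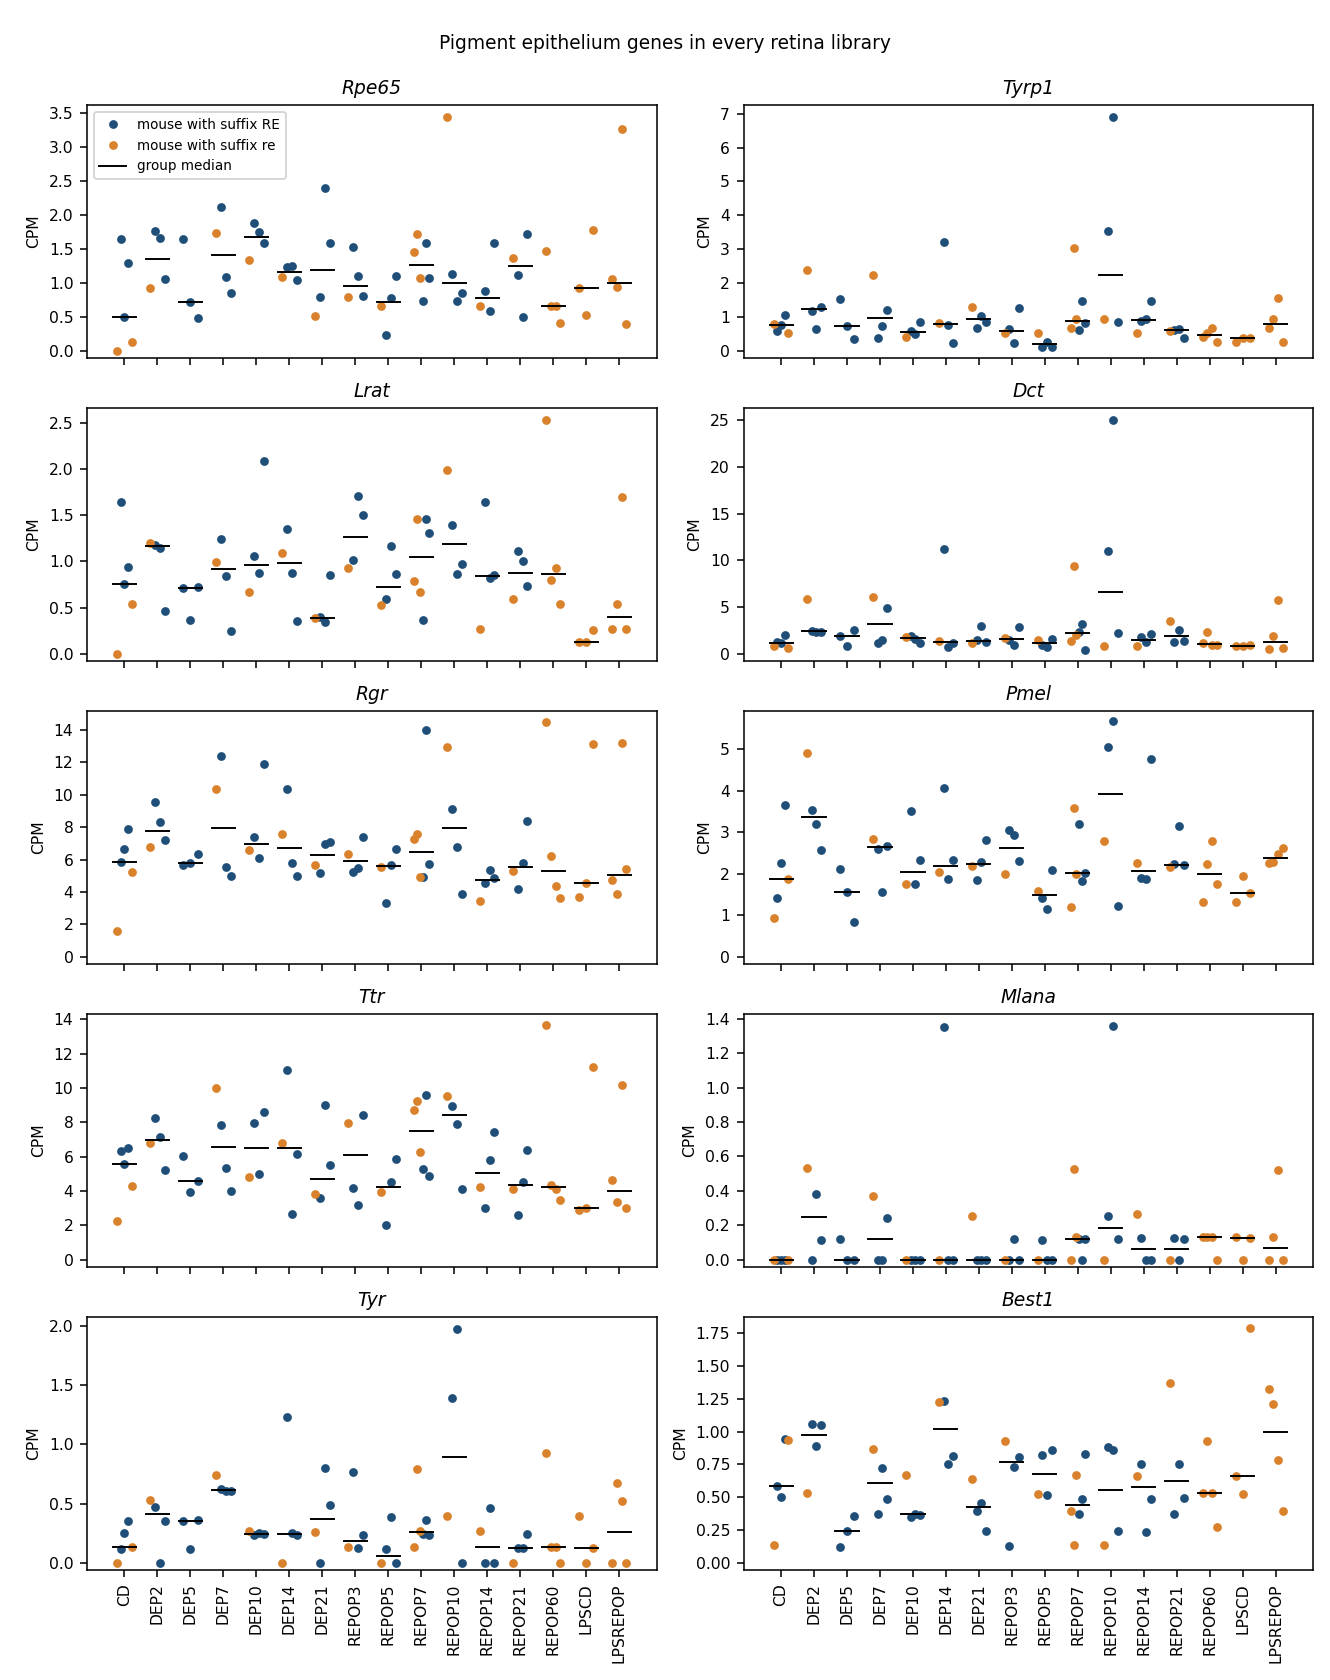
CPM (linear axes) of each of the 10 genes in every library by group. Each point is 1 mouse, coloured by the suffix of its sample title, and bars mark group medians. The highest values of Dct (25.0 CPM) and of Tyrp1 (6.90 CPM) come from the same REPOP10 mouse.

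Among the melanosome genes, Dct and Tyrp1 differed between groups. In the test of all 16 groups together with the suffix in the model, Tyrp1 (FDR 0.00312) and Dct (FDR 0.00618) were called, 2 of 10 genes, where 2.24% of all genes were called. Among other listed genes, 3 of 4 of endothelium, 2 of 5 of Müller glia, 4 of 8 of lens and 6 of 6 of microglia were called. Of 5 ciliary epithelium and 5 stroma genes 0 were called. The FDR of the other members was 0.279 for Pmel, 0.324 for Mlana, 0.379 for Lrat, 0.462 for Best1, 0.519 for Tyr, 0.762 for Rpe65, 0.776 for Rgr and 0.802 for Ttr. Within RE mice alone neither gene was called (Dct FDR 0.0149, Tyrp1 0.0593), and within re mice alone Dct was (FDR 8.12e-07) and Tyrp1 was not (0.0212). In the fit of re mice 902 of 30769 genes (2.93%) were called, and 10 of its 15 groups hold 1 mouse, which is assumed to vary like those of the other groups. With the title series in place of the suffix neither gene was called (Tyrp1 FDR 0.0245, Dct 0.0291). Each of 2 libraries was needed for both calls. Without REPOP10 replicate 2 the FDR was 0.0182 for Tyrp1 and 0.0359 for Dct, and without REPOP10 replicate 3 it was 0.0794 and 0.306. Dct also missed the threshold without LPSCD replicate 2 (0.0124) or 3 (0.0137).

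Dct stood at 0.790, 1.29, 1.13, 2.0 and 0.669 CPM in the 5 CD mice. In the 4 REPOP10 mice it stood at 0.794, 11, 25.0 and 2.19 CPM. Of the REPOP10 mice 3 lay above every CD mouse, 1 of them by little, and replicate 1 lay inside the CD range, so the groups overlapped. Fitted on these 9 mice with the suffix, Dct was higher in REPOP10 by a log2 fold change of 2.72 (SE 0.478, edgeR quasi-likelihood FDR 0.00483), the only member called in any of the 15 comparisons. In that comparison 0.00838% of the 23859 genes tested were called as higher and 0.0754% as lower. The FDR was 0.204 without REPOP10 replicate 3, with a log2 fold change of 1.80. It was above 0.01 in 5 of the 9 fits that each left out 1 mouse, with 0.589 without REPOP10 replicate 2 and 0.705, 0.346 and 0.722 without CD replicates 2, 3 and 4. It was also above the threshold without the suffix in the model (0.683), with a stricter filter on low counts (0.106) and with all 16 groups in one fit (0.0154).

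Tyrp1 followed the same libraries. Its values were 0.790, 0.586, 0.756, 1.06 and 0.536 CPM in CD and 0.926, 3.54, 6.90 and 0.851 CPM in REPOP10, again with replicates 2 and 3 high and the other two within the CD range. The log2 fold change was 1.84 (SE 0.443) and missed the threshold with an edgeR FDR of 0.0589. In the other direction, all 4 REPOP5 mice (0.118 to 0.526 CPM) and all 3 LPSCD mice (0.265 to 0.392 CPM) lay below the lowest CD mouse for Tyrp1, values of 1 to 4 counts, and neither difference was called. In these comparisons 0.0504% and 0 of all genes were called as lower. The share of all genes with values wholly outside the CD range was not counted, so these separations cannot be set against it. They were picked after the values were seen.

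In DEP2 Dct stood at 5.85, 2.47, 2.30 and 2.33 CPM, above every CD mouse, and was higher by a log2 fold change of 1.44 (SE 0.311, edgeR FDR 0.0468), which missed the threshold. Replicate 1 set the size of this difference, which was 0.67 without it. In DEP7 Dct stood at 6.05, 1.12, 1.45 and 4.87 CPM (log2 fold change 1.51, SE 0.382, edgeR FDR 0.143), with 2 mice inside the CD range. With the replicate number as a block the DEP7 difference passed (log2 fold change 1.28, edgeR FDR 0.00189), and that in DEP2 did not (1.23, edgeR FDR 0.223). After centring within the suffix, same-numbered DEP7 and CD samples did not deviate together (r over genes from -0.173 to 0.007). For DEP2 and CD this r ran from 0.104 to 0.493. Tyr lay above CD in all 4 DEP7 mice (0.604 to 0.741 CPM against 0 to 0.353), which is 5 or 6 counts a library. For Dct in DEP2 and Tyr in DEP7, too, the share of all genes that did not overlap CD was not counted.

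**Figure D3:**
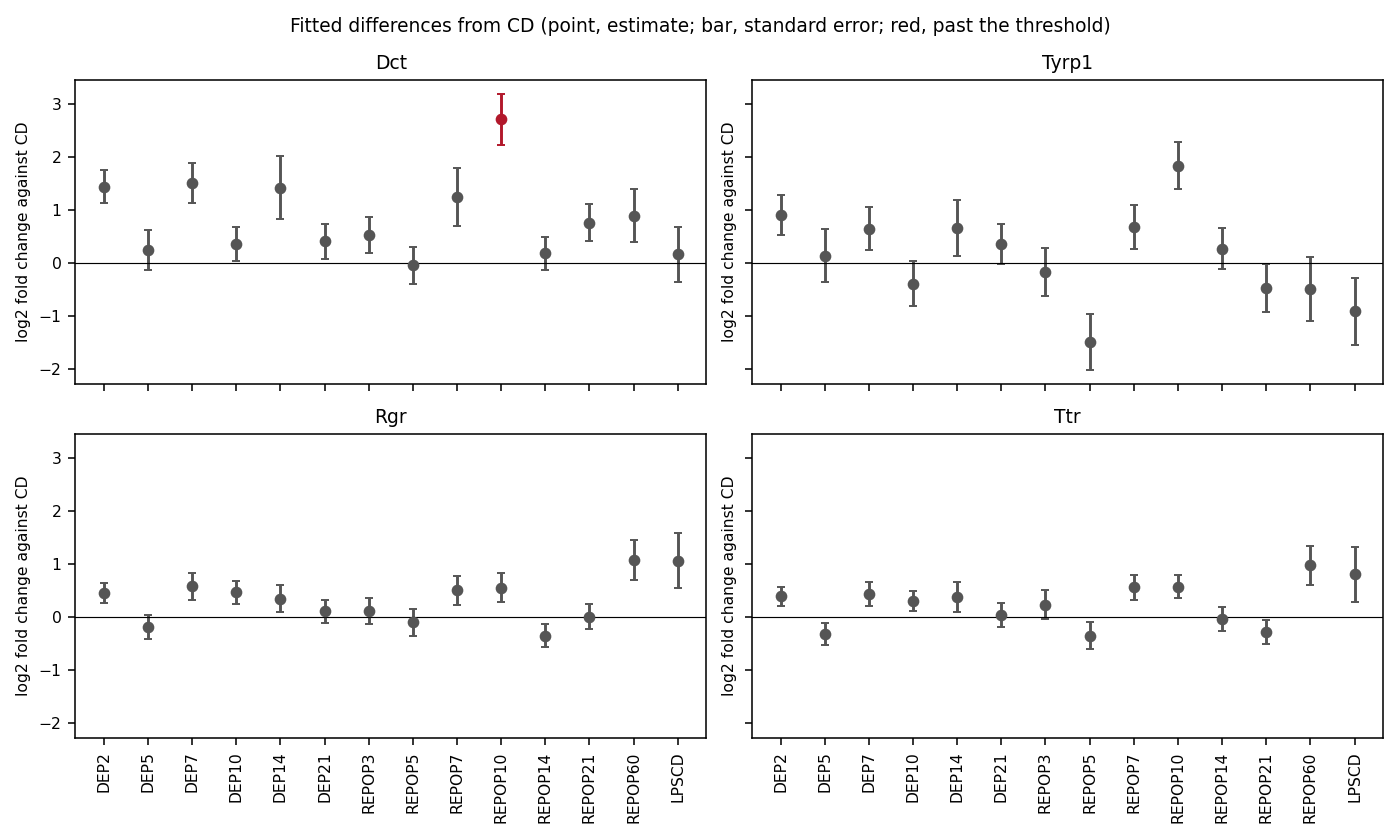
Log2 fold change against CD (vertical axis) of Dct, Tyrp1, Rgr and Ttr in 14 comparisons, from edgeR with the title suffix in the model. Points are estimates and bars standard errors, and red marks the one value past the threshold, Dct in REPOP10 at 2.72. All comparisons share the CD mice.

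None of the other 14 comparisons called any of the 9 or 10 members that entered its test, in edgeR or in DESeq2. Few genes of any kind were called. No gene was called as higher except in DEP10 (0.00418%). In LPSCD the 0 depends on the model, with 38 genes higher and 1 lower without the suffix, 196 and 41 when every group entered one model, 19 and 1 in DESeq2, and 0 members called in each. The share called as lower was highest in DEP21 (0.0884%), then DEP7 (0.0625%), DEP10 (0.0543%), DEP2 (0.0501%), DEP14 (0.0419%) and DEP5 (0.0345%), and on the repopulation side it was 0.0678% in REPOP7, 0.0548% in REPOP21, 0.0504% in REPOP5 and 0.0377% in REPOP3, and 0 in REPOP14, REPOP60, LPSCD and LPSREPOP. At an unadjusted p under 0.05 there were 7 members in REPOP10 (12.2% of all genes), 6 in DEP2 (4.47%), 4 in DEP7 (8.2%) and in REPOP60 (3.22%), 3 in REPOP7 (5.72%) and 2 in DEP10 (6.38%). There was 1 each in DEP14 (4.74%), REPOP5 (6.73%), REPOP14 (3.42%), REPOP21 (16.8%), LPSCD (10.5%) and LPSREPOP against LPSCD (8.05%), and there were 0 in DEP5 (4.14%), DEP21 (4.14%) and REPOP3 (5.19%). The median log2 fold change of the members was 1.03 in REPOP60, 0.89 in REPOP10, 0.84 in LPSCD, 0.74 in DEP2, 0.65 in LPSREPOP against LPSCD, 0.62 in REPOP7, 0.61 in DEP7, 0.53 in DEP14, 0.35 in DEP10, 0.26 in REPOP3, 0.11 in DEP21, 0.09 in REPOP14, 0.08 in REPOP21, -0.23 in REPOP5 and -0.27 in DEP5, against medians over all genes between -0.00 and 0.01. Without the suffix in the model it was 0.25 in REPOP60 and 0.06 in LPSCD. All of these comparisons except LPSREPOP against LPSCD share the CD mice. Of these, replicate 1 had the lowest sum of the 10 genes of all 65 libraries, 6.45 CPM against a median of 18.9. All REPOP60 and LPSCD mice share the suffix of CD replicates 1 and 2M, so with the suffix in the model their differences are taken from those 2 CD mice.

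No retinoid gene was called between groups, and single mice stood far from the rest of their group. Rgr ran from 1.58 to 14.5 CPM with a median of 5.79, and its group medians stayed between 4.57 CPM in LPSCD and 7.96 CPM in DEP7. Ttr ran from 2.0 to 13.7 CPM, with group medians from 3.0 in LPSCD to 8.43 in REPOP10. No group lay wholly above or below CD for Rgr, Ttr, Rpe65, Lrat, Pmel, Mlana or Best1. In REPOP60 Rgr stood at 14.5, 6.21, 4.37 and 3.63 CPM and Ttr at 13.7, 4.36, 4.10 and 3.5 CPM, so that 1 mouse held both high values. In LPSREPOP Rgr stood at 4.77, 3.89, 13.2 and 5.38 CPM and Ttr at 4.63, 3.35, 10.2 and 3.02 CPM, again with 1 mouse high for both. Rpe65 was 3.27 CPM in that mouse, against 0.394 to 1.06 in the other 3. In LPSCD replicate 3 was the high one, at 13.1 CPM of Rgr and 11.2 of Ttr, beside 3.70 and 4.57 of Rgr and 2.91 and 3.0 of Ttr.

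Best1, the channel gene, ran from 0.118 to 1.79 CPM, with group medians between 0.241 CPM in DEP5 and 1.02 CPM in DEP14, and the 3 DEP5 mice, at 0.118, 0.241 and 0.360 CPM, overlapped CD (0.132 to 0.942). Lrat had its lowest group median in LPSCD (0.132 CPM, with mice from 0.131 to 0.255 CPM), and its group medians reached 1.26 CPM in REPOP3. Pmel had group medians between 1.5 CPM in REPOP5 and 3.92 in REPOP10, where single mice stood at 2.78, 5.06, 5.67 and 1.22 CPM.

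Ttr and Rgr moved together from mouse to mouse. Correlations were taken on log2(CPM + 1) after subtracting the mean of each group, in RE mice (n = 39) and in re mice of groups with at least 2 such mice (n = 16), with a two-sided permutation test within groups, adjusted over 45 pairs. Of the 45 pairs, Ttr and Rgr passed in both sets. In RE mice r was 0.76 and rho 0.81 (permutation p = 1e-05 for both, the smallest the permutations can give, adjusted p = 0.00045), and r was 0.77 without the 2 mice farthest from the median of Ttr. In re mice r was 0.95 and rho 0.88 (adjusted permutation p = 0.0154 and 0.00555). The ratio of Rgr to Ttr counts stayed between 0.656 and 2.19 in all 65 libraries, and the middle 80% of libraries spanned 1.86-fold.

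All 6 pairs of retinoid genes had a positive r in both sets. In RE mice the median r was 0.46 and 1 of the 6 pairs passed (adjusted p under 0.05), and in re mice it was 0.82 and all 6 passed, from 0.80 for Rpe65 and Rgr to 0.95. The 10 pairs of melanosome genes were also all positive, with a median r of 0.62 in RE and 0.57 in re mice, and 0 and 4 of them passed. Tyrp1 and Dct had an r of 0.80 and a rho of 0.60 in RE mice (adjusted permutation p = 0.0533 and 0.0526), and 0.66 without the 2 mice farthest from the median. In re mice r was 0.89 and rho 0.78 (adjusted permutation p = 0.0373 and 0.057), and 0.73 without those 2. For the melanosome genes the median rho in RE mice was 0.35.

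Pairs that joined a retinoid with a melanosome gene were weaker in RE mice. Their median r was 0.18 in RE (0 of 20 passed) and 0.45 in re mice (3 of 20 passed: Rpe65 and Mlana, Lrat and Tyr, Lrat and Mlana). Dct had an r of -0.00 with Rpe65, -0.02 with Lrat and 0.37 with Rgr in RE mice, and of 0.58, 0.60 and 0.36 in re mice. Over all pairs 1 of 45 passed in RE and 13 of 45 in re mice. The count in re mice was 2 of 45 without the 2 mice farthest from the median, LPSREPOP replicate 3 and REPOP7 replicate 2. The grouping of pairs by role was made after the values were seen, and the difference between pairs within and across roles was not tested.

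**Figure D4:**
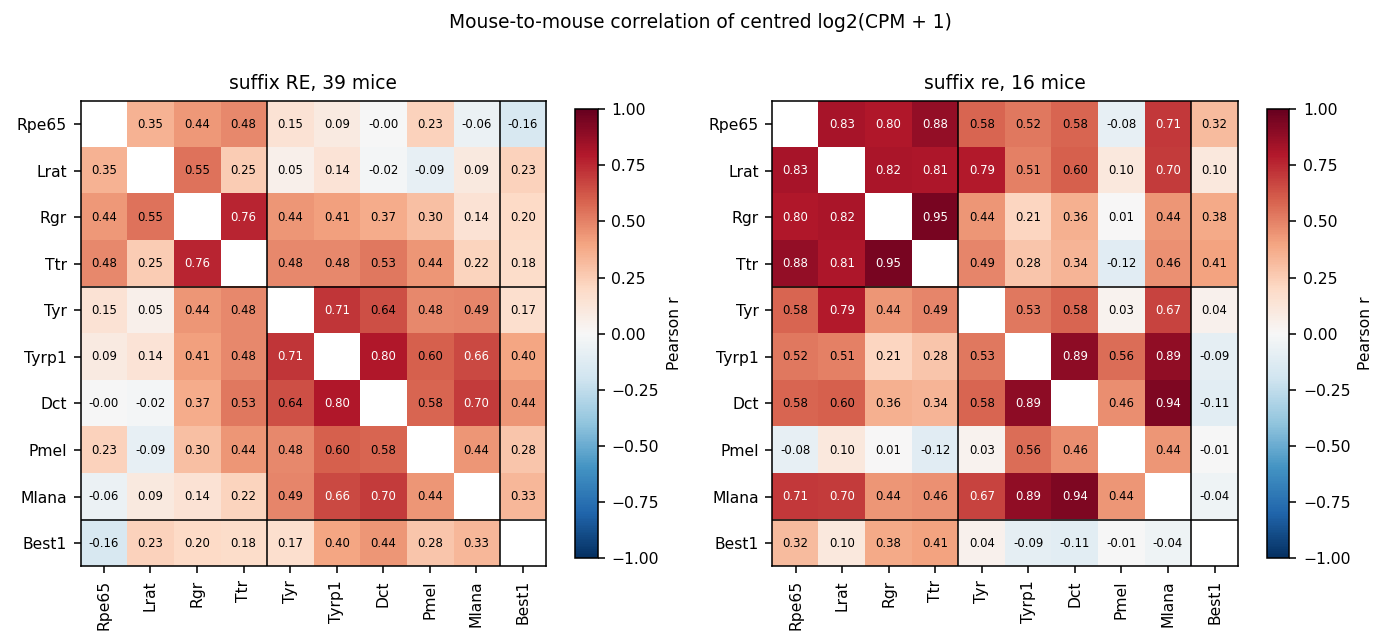
Pearson r between every pair of the 10 genes over 39 RE mice (left) and 16 re mice (right), on log2(CPM + 1) centred on group means, with colour from blue (-1) to red (1). Lines set off the 4 retinoid genes, the 5 melanosome genes and Best1. In RE mice the 2 blocks on the diagonal are redder than the block between them, with 0.76 for Ttr and Rgr and 0.80 for Tyrp1 and Dct.

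The highest sums of the roles came from mice that differed in part. The summed CPM of the 4 retinoid genes had a median of 12.9 and was highest in REPOP60 replicate 1 (32.2), LPSREPOP replicate 3 (28.3), REPOP10 replicate 1 (27.9), REPOP7 replicate 5 (26.6), LPSCD replicate 3 (26.4) and DEP10 replicate 4 (24.1). The summed CPM of the 5 melanosome genes had a median of 4.53 and was highest in REPOP10 replicate 3 (40.9), REPOP10 replicate 2 (21.2), DEP14 replicate 2 (21), REPOP7 replicate 2 (17.3), DEP2 replicate 1 (14.2) and DEP7 replicate 1 (12.2). The 2 lists of 6 libraries had 0 in common and came from 6 and 5 groups, but this depends on their length, and lists of 7 shared 2, DEP14 replicate 2 and LPSREPOP replicate 3. The counts of Dct relative to Rgr ranged over 60.3-fold, from 0.0612 to 3.69, the latter in REPOP10 replicate 3. In REPOP10 itself replicate 1 had 3.44 CPM of Rpe65 and 13.0 of Rgr with 0.794 of Dct, whereas replicate 3 had 0.740 of Rpe65 and 6.78 of Rgr with 25.0 of Dct. DEP14 replicate 2 was high for both roles, with 11.2 CPM of Dct, 11.1 of Ttr and 10.3 of Rgr. A bulk value cannot tell more cells of a type from more RNA per cell.

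**Figure D5:**
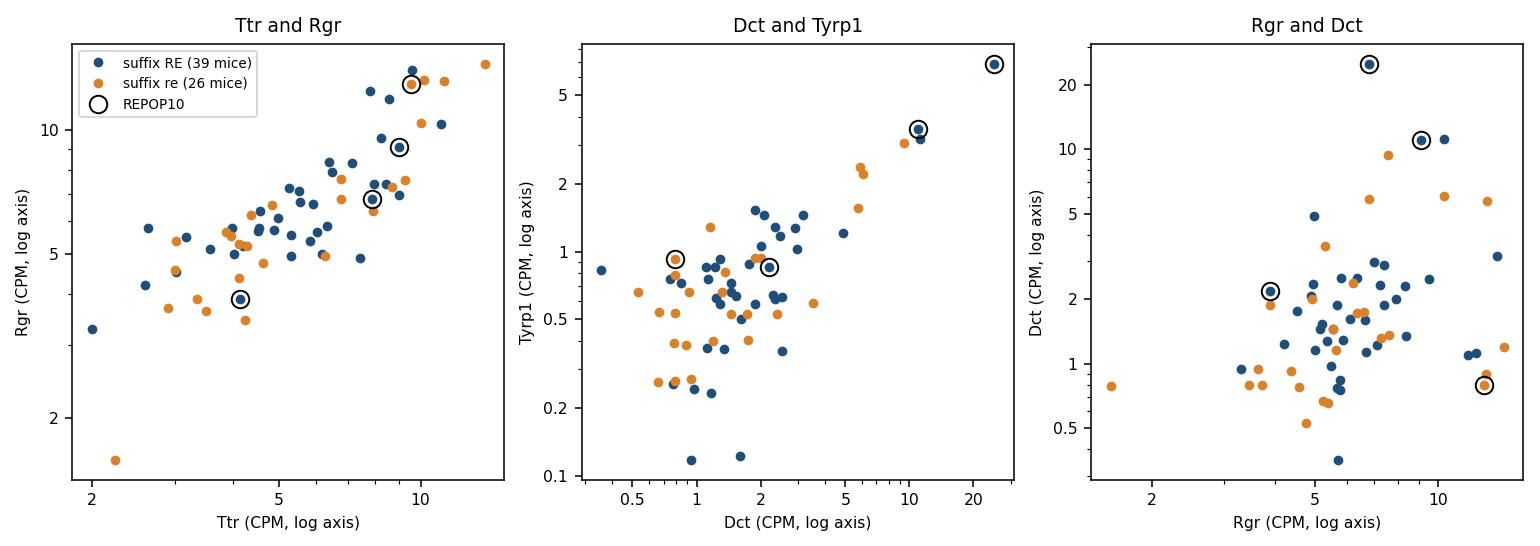
CPM in 65 libraries on log axes for Ttr and Rgr, Dct and Tyrp1, and Rgr and Dct. Each point is 1 mouse, coloured by title suffix, and rings mark the 4 REPOP10 mice. Ttr and Rgr lie along a line, with count ratios of Rgr to Ttr from 0.656 to 2.19, and the highest Dct value, 25.0 CPM, comes with a middling Rgr value.

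The promoters of the melanosome enzymes share a short word. MITF, the transcription factor that drives melanin genes in the pigment epithelium and in melanocytes, binds the E-box CATGTG. RefSeq promoter windows (GRCm38.p6, 250 bases before to 50 after the start) were at hand and used for 7 of the members, and CATGTG was searched on both strands, where CACATG is its reverse complement. It was present in 5 of the 7 windows (Tyr, Tyrp1, Dct, Rpe65, Rgr) and in 14.2% of the 32851 windows of all genes. The match in Tyr with 2 bases on either side, GTCATGTGCT, was present in 3 of the 7 windows, those of Tyr, Tyrp1 and Dct, and in 0.186% of all windows. It was chosen by reading these windows. A match is only a match of letters. The 30 bases around each match (29 for Rpe65, at the edge of its window) follow with the word in capitals, on the strand of the gene. Positions are counted from the RefSeq start, which differs from the GENCODE start by 90 bases in Tyrp1, whose match lies inside the GENCODE gene, and by 50 in Rgr.
Tyr at -21, chr7:87493516-87493545, minus strand: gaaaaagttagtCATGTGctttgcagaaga
Tyrp1 at -46, chr4:80834155-80834184, plus strand: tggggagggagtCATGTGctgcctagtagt
Dct at -150, chr14:118052379-118052408, minus strand: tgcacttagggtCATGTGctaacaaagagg
Dct at -232, chr14:118052461-118052490, minus strand: gcttggctgggaCACATGagcccaataaag
Rgr at -5, chr14:37049002-37049031, minus strand: cataataatctcCACATGccagcaagggag
Rpe65 at -239, chr3:159598931-159598959, plus strand: catggcaggccCACATGgctcttttttat

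Dct, called in REPOP10, holds 2 matches before its start. The 250 bases upstream, chr14:118052247-118052496 on the minus strand, are shown with both in capitals.
Dct upstream: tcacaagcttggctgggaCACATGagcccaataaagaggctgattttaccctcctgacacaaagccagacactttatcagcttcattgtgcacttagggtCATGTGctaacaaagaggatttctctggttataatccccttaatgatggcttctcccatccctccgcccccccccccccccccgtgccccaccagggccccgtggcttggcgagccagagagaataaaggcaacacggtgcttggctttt

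Among genes outside the list, those most like the melanosome genes included matrix genes and Optc. Likeness was measured as Pearson r over the 39 RE mice between a gene and the mean of the standardised centred values of the melanosome genes, among genes with a mean of at least 1 CPM. Among the highest were Ptgds (0.89), Gja1 (0.86), Gpx3 (0.86), Fmod (0.84), Slc6a13 (0.83), Fbln1 (0.83), Penk (0.82), Optc (0.82) and Mfap4 (0.81). In the 16 re mice, which were not used to choose them, r was between 0.57 and 0.79 for each of those named, above at least 98.4% of genes. Ptgds makes prostaglandin D2, Gja1 encodes connexin 43, Fmod, Fbln1 and Mfap4 encode matrix proteins, and Optc encodes opticin, which the non-pigmented ciliary epithelium secretes into the vitreous. The same measure for the retinoid genes led to Tfpi (0.62), Rabggtb (0.61), Them4 (0.60), Nt5c (0.60) and Nhp2 (0.57), of which Nt5c alone kept an r above 0.5 in re mice (0.70) and the other 4 had 0.17, -0.22, -0.13 and -0.04. The next 5 were Ankrd55 (0.57), Gm15956 (0.56), Rab27a (0.55), Nfkbie (0.55) and Ankrd13d (0.55). Their r in re mice was 0.29, 0.05, 0.33, 0.21 and 0.10. Rab27a is in the list of other melanosome genes. With the 5 members of at least 1 CPM as one mean, the 10 highest were Ptgds (0.74), Nt5c (0.70), Pea15a (0.65), Cyb5rl (0.64), Dctn3 (0.64), Ube2r2 (0.62), Syn3 (0.60), Gja1 (0.60), Tfpi (0.59) and Pdyn (0.59), with r in re mice from -0.81 for Cyb5rl to 0.79 for Ptgds. These are descriptions across libraries that share their preparation, with no test.

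As list means, markers of neighbouring tissues had a higher r with the melanosome genes than with the retinoid genes for the ciliary and stroma lists. This difference was not tested. For 5 ciliary epithelium genes (Optc, Col9a1, Msx1, Zic1, Otx1) r with the melanosome genes was 0.85 in RE and 0.58 in re mice, and with the retinoid genes 0.20 and 0.01. For 5 genes of sclera and choroid stroma (Col1a1, Col1a2, Col3a1, Dcn, Lum) r was 0.62 and 0.82 with the melanosome genes and 0.16 and 0.53 with the retinoid genes. For 12 other pigment epithelium genes it was 0.67 and 0.49, and 0.41 and 0.71. For 12 other melanosome genes it was 0.75 and 0.62, and 0.19 and 0.67. For 4 genes of choroid melanocytes it was -0.30 and 0.28 with the melanosome genes. The means of the other lists are not given here. With the members as one mean, fewer lists had a high r in RE mice without the 2 farthest mice, as given below. Genes of the same list differed in their own likeness to the melanosome genes in RE mice. In the ciliary list Optc had an r of 0.82, Zic1 0.55 and Col9a1 0.13. In the stroma list Col1a2 had 0.75 and Col1a1 -0.11. In the other melanosome list Gpnmb had 0.74, Tspan10 0.53, Slc24a5 0.17, Mitf 0.02, Rab27a -0.03, Mc1r -0.29 and Trpm1 -0.41. In the Müller glia list Aqp4 had 0.52, Apoe 0.41, Glul 0.23, Rlbp1 0.04 and Slc1a3 0.00. The ciliary list summed to 93.5 CPM in REPOP10 replicate 3, 89.1 in replicate 2, 68.6 in replicate 4 and 53.9 in replicate 1, against 47.7 to 64.6 CPM in CD. The stroma list summed to 12, 11.6, 5.47 and 7.01 CPM in the same order, against 3.91 to 7.07 in CD. The ciliary list reached 95.1 CPM in DEP14 replicate 2, its highest value over the 65 libraries, with 39.7 CPM of 9 lens genes, which had a median of 1.97 over all libraries. DEP14 replicate 1 had more of the lens genes, 56.5 CPM, with 1.36 CPM of Dct. The part of these tissues in the differences of Dct and Tyrp1 was not tested.

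Other genes of the pathway were tested in the same fits. In the test of 16 groups, 1 of 12 other pigment epithelium genes was called (Krt18, a keratin, FDR 9.58e-06), 2 of 12 other visual cycle genes (Rlbp1, the retinaldehyde carrier that Müller glia also make, FDR 4.79e-04, and Abca4, a transporter of photoreceptor discs, FDR 0.00439), and 0 of 12 other melanosome genes (3 at an unadjusted p under 0.05), with 2.24% of all genes called by edgeR and 14.2% at that p. None of the 5 ciliary epithelium, 5 stroma or 4 choroid melanocyte genes was called in this test, and 1, 2 and 1 of them had an unadjusted p under 0.05. In the 15 comparisons edgeR called 0 genes of these 6 lists in either direction. At an unadjusted p under 0.05 the lists had 15 of 180 tests of a gene in a comparison (other pigment epithelium), 13 of 180 (visual cycle), 15 of 169 (other melanosome), 11 of 75 (ciliary epithelium), 14 of 62 (stroma) and 7 of 58 (choroid melanocytes). These are 8.33%, 7.22%, 8.88%, 14.7%, 22.6% and 12.1%, against 6.93% of all tests in the 15 comparisons. The summed level of the 12 other pigment epithelium genes was 72.6, 103 and 118 CPM in LPSCD, above all 5 CD mice (51.7 to 70.2 CPM). In LPSREPOP it ran from 69.1 to 124 CPM. All LPSCD mice have the suffix re, as do 2 of the 5 CD mice. The share of all genes or lists wholly above CD was not counted, so this separation cannot be set against it. In LPSCD edgeR called 0 of these 12 genes, with 2 at an unadjusted p under 0.05. The microglia list moved with the treatments, with all 6 genes called in the test of 16 groups and 10 of the 15 comparisons holding at least 1 lower gene, and its sum ran from 0 to 55.6 CPM. In that test the microglia genes of smallest p were Ctss, C1qa, C1qb, Cx3cr1 and Tmem119. In the lens list, 4 of 8 genes tested were called (Crybb2, Cryaa, Cryba1, Crygs). The endothelium list had 3 of 4 called (Cldn5, Pecam1, Cdh5) and the Müller glia list 2 of 5 (Slc1a3, Rlbp1). The photoreceptor list had 1 of 7 (Arr3), the blood list 1 of 5 (Hbb-bs) and the muscle list 0 of 3 tested.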

How the data were processed

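Raw gene counts and FPKM values of 65 retina libraries were used as deposited. RNA was sequenced on the BGISEQ-500. The study's methods name oligo(dT) selection of poly-A RNA or removal of ribosomal RNA with a DNA probe. The submitters' processing notes name HISAT2, mm10, HTSeq and StringTie, with no versions. The authors deposited HTSeq counts per gene (not normalized) and StringTie FPKM per gene. The strand setting and annotation release are not given in the sources used here. The FPKM table holds 1 row without a gene, which was left out. Of 50686 identifiers, 50376 were paired with a symbol.

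CPM was computed over all gene counts. Tests used edgeR 4.0.16 (quasi-likelihood, TMM) in R 4.3.3 on counts, with genes of at least 1 count in a share of 0.5 of the mice of a group, and Benjamini-Hochberg FDR under 0.01 with an absolute log2 fold change above 1 (no fold for the test of 16 groups). The title suffix was a term in every model except LPSREPOP against LPSCD, where it does not vary. DESeq2 1.42.0 was an alternative. Fits that left out 1 mouse from the test of 16 groups reused the trended dispersions of the full fit. Each sample is called a mouse here, which the labels do not state beyond separate sample titles, so p-values measure the spread between these samples. No 2 libraries of a group differed by as little as sampling noise (lowest chi-square per gene 1.36 over 103 pairs).

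Correlations used TMM-scaled log2(CPM + 1) and 100000 permutations within groups (seed 1). A test of each single outlier used the published critical values of Dixon. Same-numbered samples deviated together, with every pair over 0.1, in 8 of 15 comparisons (12347 genes), and after centring within the suffix in 1, so the block is given for those 8. On simulated counts the test of 16 groups recovered 62 of 67 genes changed by a log2 fold of 1.5 in REPOP10 and 66 of 66 changed by 3 (27139 genes), and the comparison of REPOP10 with CD recovered 64 of 67 and 66 of 66 (23867 genes). These counts were drawn at the trended dispersion, and only genes with higher mean counts were changed. Members such as Dct (biological coefficient of variation 0.613, trend 0.144) and Mlana (1.15, trend 0.324) varied more, so the recovery does not apply to them.

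Named in the text are all 10 members, members past the threshold in a comparison and the 3 differences of smallest unadjusted p, listed genes past the test of 16 groups or of the suffix (at most 5 a list), and the 10 genes most like the members, except for 1 gene like the melanosome genes that is not reported here. Dct in DEP7 and values of Tyr and Tyrp1 that did not overlap CD were added after the values were seen, as were the split by role and the promoter words. The members and lists were chosen with earlier results of these data known. Correlations with other lists are given without the planned p-values. Intervals for single counts cover counting error only.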

Additional observations from a re-analysis of the deposited data

Results flagged for a closer look

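Of 138 groups of 4 to 10 mice tested by gene, 25 held a highest or lowest mouse whose gap to the nearest other mouse exceeded Dixon's 95% critical value. For normally distributed values chance alone marks about 1 in 20, but CPM of few counts need not be normal. Any count beside 0 in all other mice is marked, as for Mlana in DEP21, REPOP3 and REPOP5. The share marked over all genes was not taken, so the 25 cannot be set against it. In 22 the mouse was high and in 3 low. Tests of genes in one group share their mice. Values in CPM follow, by gene, each with the nearest other mouse of its group where it is not 0.

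Among the retinoid genes, Rpe65 was 3.44 in REPOP10 replicate 1 (next 1.14), Ttr was 13.7 in REPOP60 replicate 1 (next 4.36), and Rgr was 14 in REPOP7 replicate 5 (next 7.54) and 13.2 in LPSREPOP replicate 3 (next 5.38). Lrat was 0.856 in DEP21 replicate 4 (next 0.396) and low in DEP2 replicate 4, at 0.467 (next 1.15).

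Among the melanosome genes, Dct was 11.2 in DEP14 replicate 2 (next 1.36), 9.40 in REPOP7 replicate 2 (next 3.16), 5.85 in DEP2 replicate 1 (next 2.47) and 2.97 in DEP21 replicate 3 (next 1.45). Tyrp1 was 3.04 in REPOP7 replicate 2 (next 1.46) and low in REPOP21 replicate 4, at 0.369 (next 0.587). Pmel was 4.76 in REPOP14 replicate 4 (next 2.25) and 3.15 in REPOP21 replicate 3 (next 2.23). Tyr was 0.741 in DEP7 replicate 1 (next 0.621), 0.763 in REPOP3 replicate 2 (next 0.231), 0.794 in REPOP7 replicate 2 (next 0.365) and 0.931 in REPOP60 replicate 1 (next 0.132). Mlana was 1.35 in DEP14 replicate 2, 0.529 in REPOP7 replicate 2 (next 0.133), 0.257 in DEP21 replicate 1, 0.122 in REPOP3 replicate 3 and 0.118 in REPOP5 replicate 2, and was 0 in REPOP60 replicate 4 (next 0.132). The last 4 of these Mlana values rest on 0 to 2 counts.

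Best1 was 0.672 in DEP10 replicate 1 (next 0.374). REPOP7 replicate 2 was marked for 4 genes, all of the melanosome role, and the high REPOP10 libraries were not marked for Dct, where 2 mice of 4 were high. The cause of these departures was not tested.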

How the results depend on the processing

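The number of members called in the test of 16 groups, 2, was 0 with the title series in place of the suffix and in RE mice only, 1 with filterByExpr (8 members tested) and in re mice only, 6 without a gene filter, and 0 to 2 when 1 mouse was left out. The share of all genes called, 2.24%, was 0.798%, 0.116%, 3.43%, 2.93% and 6.4% in these 5 alternatives. The suffix called 0 members under every alternative and 0 to 0 when 1 mouse was left out, and the sign of Dct in it (-0.01) turned to 0.59 with the replicate block, 0.057 in the likelihood ratio test and 0.064 in DESeq2, none past the threshold. Leaving out 1 mouse turned its sign for Dct (-0.26 to 0.32), Ttr (-0.11 to 0.031), Tyrp1 (-0.098 to 0.32) and Best1 (-0.038 to 0.17), again none past the threshold. In REPOP10 the 1 call was kept by the replicate block, RLE and the likelihood ratio test. The call of Dct was lost (0 members) with all 16 groups in one fit, without the suffix term (FDR 0.683) and with filterByExpr (FDR 0.106), and 2 members were called without a gene filter. DESeq2 gave Dct no adjusted p there. Leaving out 1 mouse gave 0 to 1. Where no member was called, the likelihood ratio test called 1 in DEP2, the replicate block 1 in DEP7 and 2 (Rgr and Ttr) in REPOP60, where the numbers do not pair the samples, and no gene filter 1 in DEP2, DEP7, DEP14, REPOP7 and REPOP60 and 2 in LPSCD; leaving out 1 mouse gave 0 to 0 in each of these 14 comparisons. The block changed no other call. In RE mice the 1 pair of 45 became 12 on log2(FPKM + 1) and 20 without centring. In re mice the 13 became 2 without the 2 farthest mice and 23 without centring. Of 13 lists, 4 had r of at least 0.5 with the members in RE mice, 1 without the 2 farthest mice and 1 on FPKM, and 3 in re mice, 1 on FPKM. The cause of these changes was not tested. Counts of 10 or fewer limit Rpe65, Lrat, Best1, Tyrp1, Tyr and Mlana in most libraries.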
